A study of Homo sapiens with 4 samples.

Results

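In MDA-MB-231 breast cancer cells, the nuclear receptor ERRα (oestrogen-related receptor α) occupied some stretches of the genome in dense clusters of neighbouring sites. These clusters are described here as chains. The summits of the authors' list of peaks matched between both ERRα replicates were sorted along chromosomes 1 to 22 and X, and summits at most 12.5 kb from the next one were linked. A chain holds 3 or more linked summits. By this rule 817 of 10026 matched summits belonged to 230 chains. A further 1676 summits formed 838 pairs, and 7533 stood alone. The members were chosen by the position of summits that were themselves called from the ChIP signal, so the numbers, lengths, spacings and enrichments of chains are given as descriptions, with no test.

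The series maps ERRα binding with ChIP-seq, the sequencing of DNA that an antibody against the receptor pulls down, in 2 replicates of ERRα ChIP set against 2 inputs, which are libraries of unprecipitated chromatin. All came from MDA-MB-231, an established human cell line of triple-negative breast cancer and thus the model of a single tumour. The labels name no treatment and no genetic change in any library, and the design text gives 2 cell culture samples as the source of the replicates. The stated purpose was to identify target genes of ERRα. Read numbers in the labels lack an exponent sign and were taken as 29000000 for ERRα and 10000000 for input libraries.

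ERRα, the product of the gene ESRRA, is an orphan nuclear receptor without a known natural hormone that switches it on and off. It binds DNA as a monomer or dimer at an extended half-site, a core of AAGGTCA preceded by TC, and works with coactivators of the PGC-1 family. It is best known for driving genes of mitochondrial respiration and fatty acid oxidation in tissues with a high energy demand. Groups of transcription factor sites within a few kilobases of each other are often seen in enhancer-rich regions, where several regulatory elements act on the same gene, and in arrays of repeated genes, where each copy has its own promoter.

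The strength of each summit is given as fold enrichment, the authors' ratio of ChIP signal to local input background at the summit, printed for both replicates or as their mean ± SD (n = 2). The promoter windows of 5 genes with a chain summit inside are shown, because they put the receptor's half-site beside a measured summit or show a window that lacks it. Each runs from 250 bases before to 50 bases after a RefSeq gene start of GRCh38.p14, is written along the strand of its gene, and has the half-site AAGGTCA or its reverse complement TGACCTT in capitals. LOC124902252 (chr9:114290764-114291063, minus strand) is a long non-coding RNA gene inside the collagen gene COL27A1. NUDT22 (chr11:64226024-64226323, plus strand) encodes a Nudix hydrolase, and the same summit lies in the window of its divergent neighbour TRPT1. TMEM107 (chr17:8176331-8176630, minus strand) encodes a protein of the ciliary transition zone. DPP9 (chr19:4720303-4720602, minus strand) encodes a dipeptidyl peptidase. AMOTL2 (chr3:134374398-134374697, minus strand) encodes an angiomotin-like partner of the Hippo effector YAP, and its window holds no copy of the half-site.
LOC124902252: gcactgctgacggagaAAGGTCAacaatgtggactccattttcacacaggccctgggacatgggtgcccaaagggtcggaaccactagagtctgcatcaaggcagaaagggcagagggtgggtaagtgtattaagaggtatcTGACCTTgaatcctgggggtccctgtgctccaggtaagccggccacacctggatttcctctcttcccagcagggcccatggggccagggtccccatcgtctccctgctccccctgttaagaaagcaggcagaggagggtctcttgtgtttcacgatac
NUDT22: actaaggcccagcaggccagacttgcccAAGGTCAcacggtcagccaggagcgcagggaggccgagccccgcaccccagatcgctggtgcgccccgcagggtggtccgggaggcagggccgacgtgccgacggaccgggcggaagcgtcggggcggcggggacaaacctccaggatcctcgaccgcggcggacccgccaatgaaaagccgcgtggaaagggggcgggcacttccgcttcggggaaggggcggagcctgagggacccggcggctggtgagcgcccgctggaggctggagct
TMEM107: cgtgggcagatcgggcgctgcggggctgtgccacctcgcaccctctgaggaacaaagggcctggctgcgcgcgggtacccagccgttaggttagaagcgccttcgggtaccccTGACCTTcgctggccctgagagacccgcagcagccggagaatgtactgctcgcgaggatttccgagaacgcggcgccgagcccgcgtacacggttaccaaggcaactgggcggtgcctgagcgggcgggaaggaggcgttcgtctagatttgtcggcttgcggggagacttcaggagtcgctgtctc
DPP9: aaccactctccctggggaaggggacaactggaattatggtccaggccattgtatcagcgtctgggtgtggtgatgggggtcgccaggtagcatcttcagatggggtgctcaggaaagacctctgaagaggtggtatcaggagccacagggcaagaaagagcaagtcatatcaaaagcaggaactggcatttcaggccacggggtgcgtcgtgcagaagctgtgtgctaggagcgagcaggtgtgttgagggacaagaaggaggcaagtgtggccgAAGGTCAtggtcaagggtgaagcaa
AMOTL2: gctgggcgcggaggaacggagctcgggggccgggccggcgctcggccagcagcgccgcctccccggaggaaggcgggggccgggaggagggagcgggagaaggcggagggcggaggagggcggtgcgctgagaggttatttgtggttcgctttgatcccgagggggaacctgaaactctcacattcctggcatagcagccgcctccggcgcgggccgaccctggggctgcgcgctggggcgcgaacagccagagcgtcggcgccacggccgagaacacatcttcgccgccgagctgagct

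The LOC124902252 window held 2 half-sites, the second of them within the full element TCAAGGTCA, read on the other strand. The summit in that window lay 31 bp from a half-site and was weak, at 4.49 in replicate 1 and 4.75 in replicate 2. In the NUDT22 window the summit lay 9 bp from the half-site, with folds of 10.0 and 9.76. The distance was 19 bp in the DPP9 window (8.99 and 12.4) and 38 bp in the TMEM107 window (9.79 and 8.56). The AMOTL2 summit had 19.8 and 20.5. It had the highest fold of the 5, but it is 1 window picked from many that lack the half-site. Over all windows with a chain summit, mean folds ran from 4.62 to 10.7 with the half-site. Without it they ran from 3.94 (EIF4A1) to 30.6 (MPV17L2). Of the 27 windows with a chain summit, 5 (18.5%) held AAGGTCA on either strand, against 119 of 454 windows (26.2%) with another matched summit and 1364 of all 34789 windows (3.92%). Overlapping windows were counted apart in every set. The NUDT22 and TRPT1 windows thus both count the same summit and half-site, and those of SLC25A11 and RNF167 the same summit. The full element TCAAGGTCA, which contains the half-site, was in 1 of 27 windows (3.70%), 31 of 454 (6.83%) and 124 of all windows (0.356%). The pattern TGANTCA was in 3 of 27 windows (11.1%), 26 of 454 (5.73%) and 2676 of all windows (7.69%). It allows any base at N and is thus wider than the AP-1 site, which has C or G there. These are counts of letters in windows, not of bound sites.

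Mature microRNAs of 2 chains named below are shown with the seed, bases 2 to 8, in capitals, from RefSeq. The let-7b hairpin (hsa-let-7b-5p at chr22:46113691-46113712, plus strand) and the miR-21 hairpin (hsa-miR-21-5p at chr17:59841273-59841294, plus strand) have different seeds.
hsa-let-7b-5p: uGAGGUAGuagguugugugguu
hsa-miR-21-5p: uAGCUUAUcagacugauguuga

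Most chains were short. Of the 230 chains, 153 held 3 summits, 45 held 4, 21 held 5, 5 held 6, 5 held 7 and 1 held 8. From the first to the last summit a chain measured 12.9 kb in the median, with quartiles of 8.76 and 17.5 kb and a range of 2.91 to 37.2 kb. The shortest chain lay at ABHD16B and TPD52L2 on chromosome 20, and the longest ran from the let-7b host gene to PPARA on chromosome 22. Together the chains covered 3.19 Mb. Median length was 10.8 kb with 3 summits, 17.03 kb with 4, 17.5 kb with 5, 28.3 kb with 6 and 32.5 kb with 7, an order that the rule itself favours because each further summit adds a step.

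**Figure D1:**
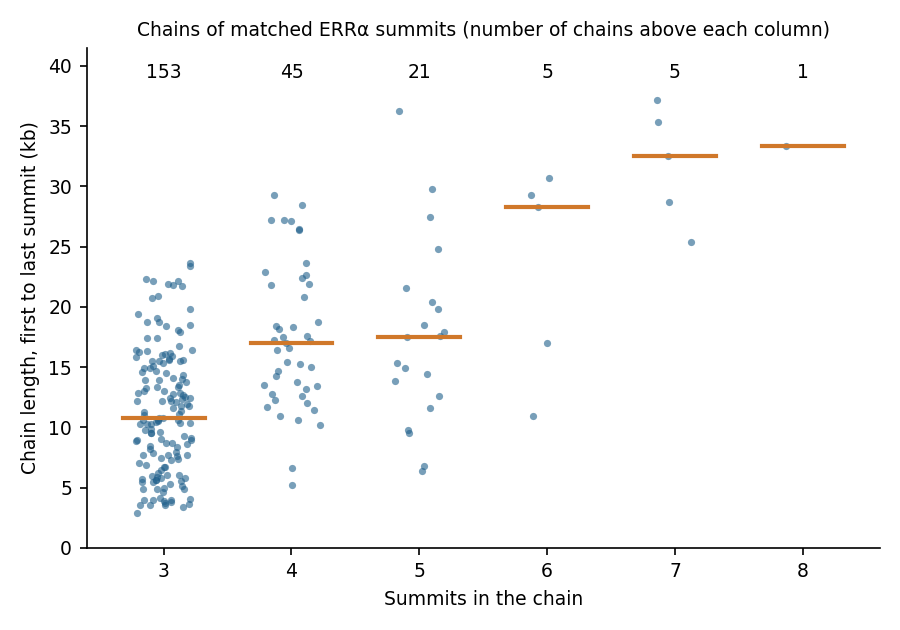
Length of each chain in kb (vertical axis) against its number of summits (horizontal axis, points spread sideways for legibility), 1 point for each of the 230 chains, with the median of each column as a bar and the number of chains printed above it. The median is 10.8 kb for chains of 3 and 32.5 kb for chains of 7.

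The steps between neighbours were mostly far below the linking limit. The 587 steps had a median of 4837 bp, with quartiles of 2570.5 and 8045.5 bp, and 101 of them (17.2%) were under 2 kb. The closest neighbours in any chain were 814 bp apart, and 73 steps were over 10 kb. Just inside the limit, a step of 12491 bp on chromosome 14 joined a summit near MARK3 (fold 7.12 and 6.62) to the next near CKB (13.99 and 17.6) in a chain of 4. Just outside it, a step of 12530 bp near PTPRJ on chromosome 11 kept apart a pair with mean folds of 7.95 and 6.33 and another with 5.95 and 5.44, which would otherwise have formed a chain of 4. Chains were also far from each other, with a median of 1062 kb to the nearest other chain, and 45 chains had another within 100 kb.

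In enrichment the members looked much like the other matched summits. Their median fold was 8.49, with quartiles of 6.21 and 13.7, against 8.42 (6.38 and 12.9) for the 9209 others. Members ran from 1.60 to 314, while the highest matched peak, at ESRRA itself, reached 544 ± 0.518 and stood alone, with its neighbours 34.7 and 13.5 kb away. The irreproducible discovery rate (IDR) ranks peaks by how well the replicates' ranks match. An IDR of 0.05, a deposited score of at least 540, was passed by 425 members (52.0%, exact Clopper-Pearson 95% interval 48.5 to 55.5%) and 4631 others (50.3%, 49.3 to 51.3%), beside 50.4% of all matched summits. Members were wider, with a median of 713 bp against 636 bp. Rows that merged several peaks of a replicate were 3.30% of members (27) and 0.673% of the others (62). Such rows carry here the strongest of their peaks in each replicate.

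The share of summits in chains was highest among the weakest. When all matched summits were ordered by mean fold and divided into 10 classes of about equal size, 11.1% of the weakest class (95% interval 9.19 to 13.2%) lay in chains. The shares in the classes between ran from 6.59 to 8.98%, and that of the strongest class was 9.27% (7.55 to 11.2%). The interval of the strongest class overlaps those of all other classes. Without summits at small structural RNA and histone genes the shares were 10.8% in the weakest and 8.63% in the strongest class. They cover positions in these lists, not further cultures, and neighbouring summits are not independent.

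**Figure D2:**
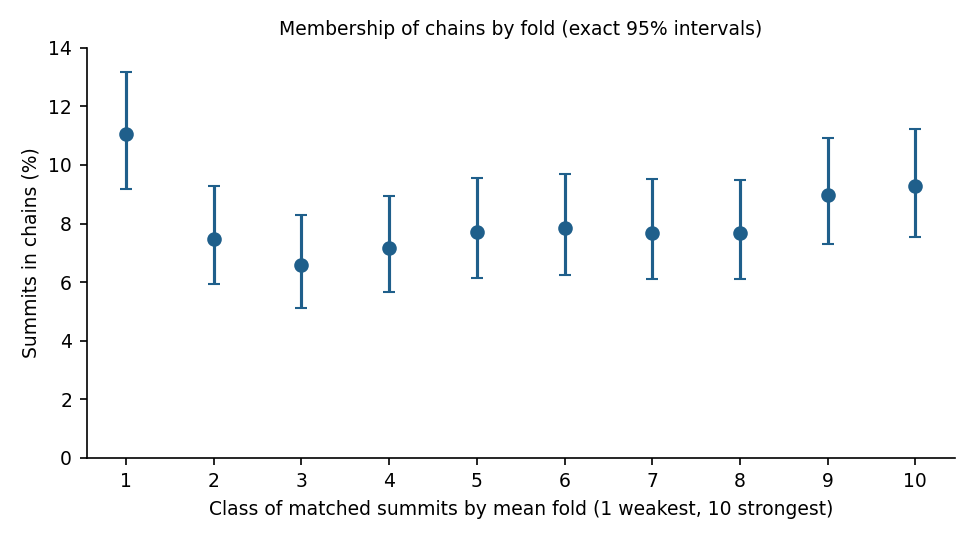
Share of matched summits that lie in chains, in percent (vertical axis), for each of 10 classes of matched summits ordered by mean fold (horizontal axis, weakest first). Points are shares and bars exact 95% intervals; the weakest class is at 11.1%, the strongest at 9.27% and the lowest at 6.59%.

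Chain strength was similar in the replicates. The sum of folds over a chain in replicate 1, divided by that in replicate 2, had a median of 1.03 and ran from 0.715 to 1.46, so that all 230 chains were within 1.5 times of each other. Across members the replicates' folds had a Spearman rho of 0.893 (n = 817), against 0.856 for the other matched summits (n = 9209), with all points sharing the same libraries. The matched list holds peaks found in both replicates, so chains at the same places in each replicate's own list are largely given by construction. Own chains of replicate 1 overlapped all 230 chains, and those of replicate 2 overlapped 229. Chained by the same rule, the own lists, which are longer, gave 460 chains with 11.8% of 14032 summits in replicate 1, and 381 chains with 10.9% of 12603 in replicate 2.

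Within a chain the strengths were uneven. The strongest summit held 44.5% of the summed fold in the median chain and was 1.52 times as strong as the second, with quartiles of 1.16 and 2.33. In 68 chains it was at least 2 times as strong and in 12 at least 5 times. Reproducible and weaker summits were mixed in most chains: all summits passed an IDR of 0.05 in 27 chains, none in 27, and some in 176. The summed fold was 36.0 in the median chain and ran from 7.003 to 456. The weakest chain, on chromosome 16 between 46387935 and 46398881, had 4 summits with mean folds of 1.60 to 2.12, none past an IDR of 0.05, and its nearest protein-coding gene, SHCBP1, was 179.7 kb away.

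The share of summits in chains varied by chromosome. It was highest on chromosome 22 with 15.7% (95% interval 11.8 to 20.2%), followed by chromosome 17 with 14.4%, chromosome 20 with 13.7%, chromosome 19 with 13.2% and chromosome 11 with 12.2%, and the intervals of these 5 overlap. Chromosome 2 had 3.34% (2.15 to 4.93%) and chromosome 15 had 1.23% (0.254 to 3.55%). No summit was in a chain on chromosome 21 (0 of 62, with an exact 95% upper limit of 5.78%) or chromosome X (0 of 89, upper limit 4.06%). Over the 23 chromosomes the share followed the density of matched summits (Spearman rho 0.845) and less closely that of protein-coding genes (0.644). Closely packed summits are linked more often by the rule, so this relation describes the rule as well as the data.

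**Figure D3:**
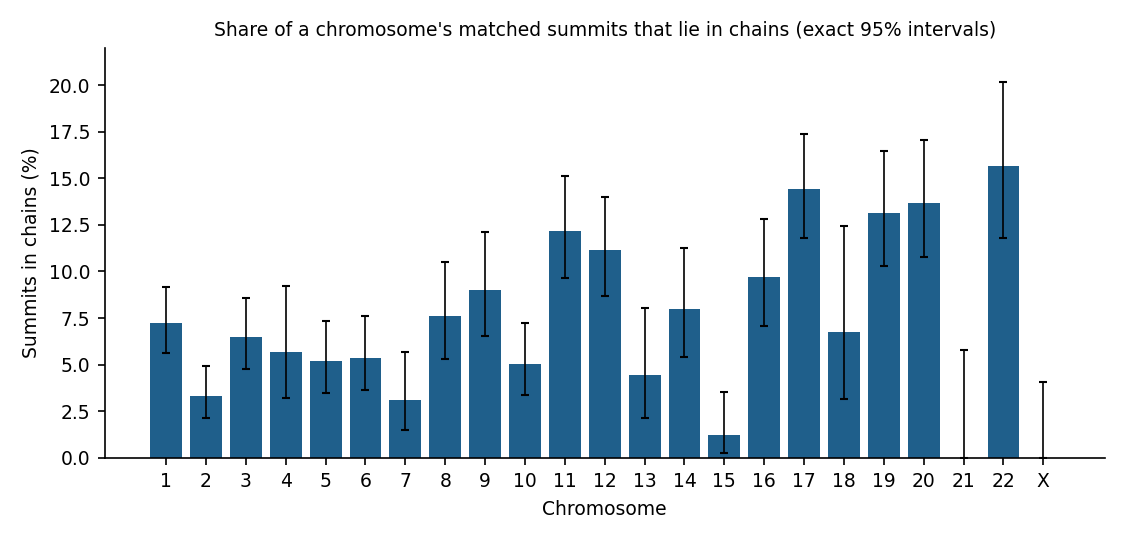
Share of the matched summits of each chromosome that lie in chains, in percent (vertical axis), by chromosome (horizontal axis). Bars start at 0 and error bars are exact 95% intervals; chromosomes 22, 17 and 20 are highest at 15.7, 14.4 and 13.7%, and chromosomes 21 and X have none.

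Members lay in the same kinds of place as other matched summits. Within 1 kb of either end of a protein-coding gene were 15.2% of members (12.8 to 17.8%) and 15.3% of the others. Inside such a gene, farther from its ends, were 46.8% and 45.9%. A further 9.67% of members and 11.0% of the others lay in a non-coding gene alone, and 28.4% and 27.9% lay outside all genes. Starts of protein-coding genes, known for all chromosomes but 8, were within 1 kb of 11.7% of members and 13.6% of the others. Of the 230 chains, 81 had at least 1 summit at a gene end and 149 had none. In 2 chains, both made of histone genes, every summit was at a gene end. Median fold also differed little by place, with 8.22 at gene ends, 8.59 inside genes, 9.19 in non-coding genes and 8.30 outside genes among members.

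**Figure D4:**
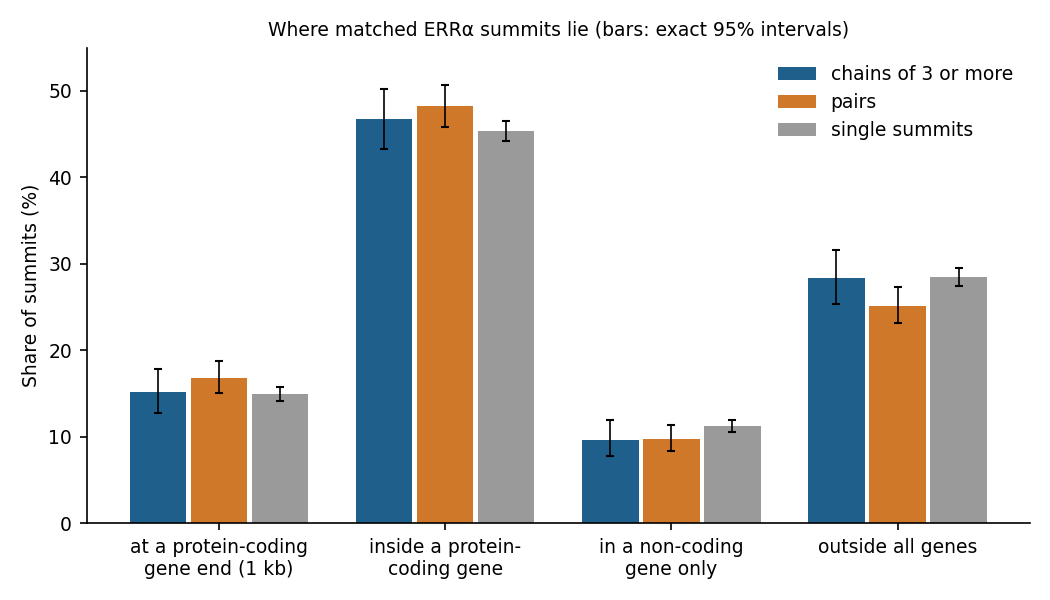
Share of summits in percent (vertical axis) in each of 4 kinds of place (horizontal axis), for summits in chains (817), in pairs (1676) and alone (7533). Error bars are exact 95% intervals; inside protein-coding genes lie 46.8% of chain members, and outside all genes 28.4%.

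The shares lay further apart at genes of small structural RNAs and at clustered histone genes. Within 1 kb of a gene for an snRNA, tRNA, snoRNA or histone lay 34 members (4.16%, 95% interval 2.90 to 5.77%) and 75 of the other summits (0.814%, 0.641 to 1.02%). snRNA genes alone accounted for 1.84% of members and 0.347% of the others, and histone genes for 1.84% and 0.109%. tRNA genes accounted for 0.245% of members and 0.250% of the others. These members sat in 9 chains, of which 4 had every summit at such a gene, so many of them share a locus and similar sequence.

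The chain with the most summits of all and a second one beside it lay on the snRNA genes of chromosome 17. RNU2-1 encodes U2, the spliceosomal RNA that pairs with the branch point of introns, and is known as part of a tandem gene array. The chain at 43266687 to 43300002 held 8 summits, and that at 43233789 to 43251732 held 5, with a gap of 14.96 kb between them. Each of these 13 summits lay within 120 bp of a different gene annotated as snRNA, the first being RNU2-1 (chr17:43233790-43233977) and the others unnamed genes of almost the same length. All 13 had the highest IDR score. In the chain of 8 the folds ran from 17.5 to 30.8 in replicate 1 and from 16.5 to 35.0 in replicate 2. In the chain of 5 the summit at RNU2-1 was the weakest (10.5 and 12.5) and that at LOC124904138 the strongest (95.5 and 105). The steps between neighbouring copies in a chain were 1255 to 6207 bp. Copies of an snRNA gene are nearly identical and reads can be shared between them, so the split of the enrichment among the 13 genes is uncertain.

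Another snRNA pair was in a chain of 3 on chromosome 1, beside KIF2C, named after its values had been seen. RNU5F-1 had a summit 592 bp away with folds of 31.7 and 27.9, and RNU5D-1 one at 139 bp with 12.6 and 13.3. Both genes encode U5, which holds the exons together during splicing. In all, 15 of the 154 annotated snRNA genes had a chain summit within 1 kb and 47 had any matched summit. The 15 snRNA summits of chains had a median fold of 28.7 and all passed an IDR of 0.05.

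Histone chains were denser in genes and weaker in signal. On chromosome 6, between 26020794 and 26056160, all 7 summits of a chain lay within 1 kb of the ends of histone genes from H3C1 to H1-2, with mean folds of 5.16 to 8.31 and 1 summit past an IDR of 0.05. On chromosome 1, between 149832760 and 149861015, all 6 summits lay at genes from H4C14 to H3C15, with mean folds of 6.44 to 9.20 and 4 past that limit. A chain of 3 at H3C12 and H2AC17 on chromosome 6 had 2 of its summits at histone genes and none past it. The folds at histone genes thus lay below those at the snRNA copies, with no overlap. Paralogous histone genes share coding sequence, which makes single values uncertain here too.

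**Figure D5:**
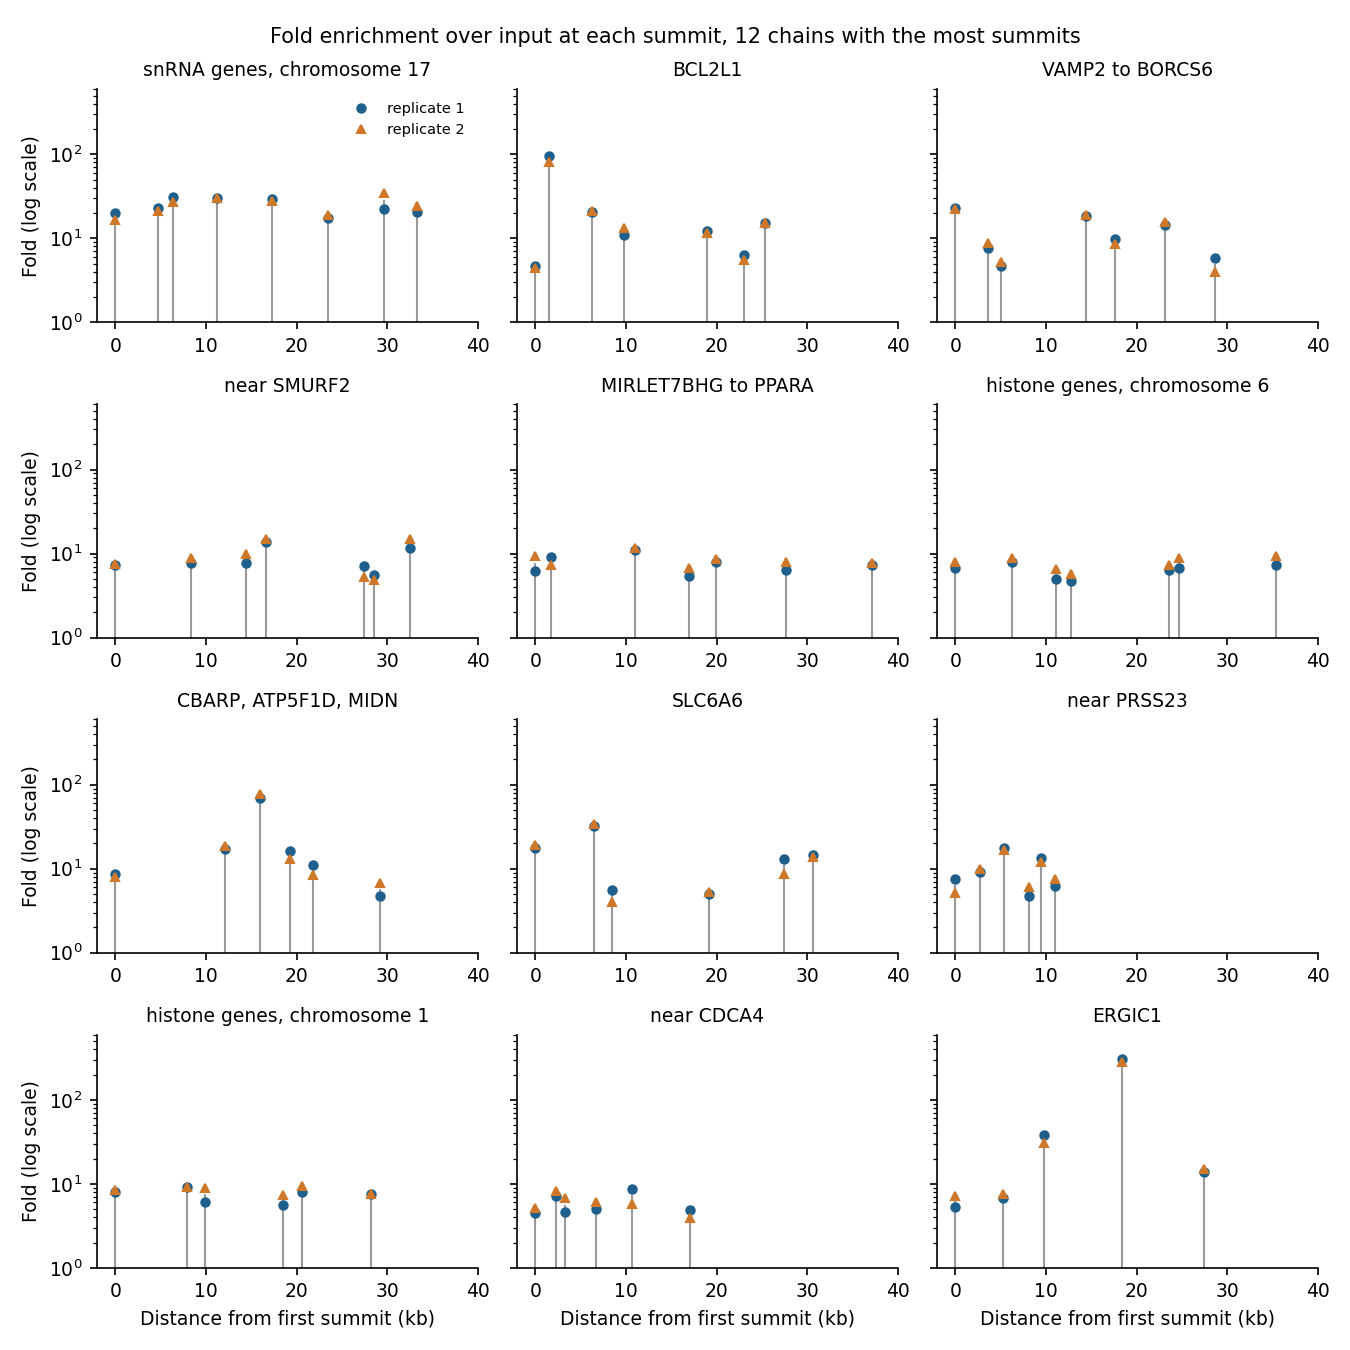
Fold enrichment over input (vertical axis, log scale) at each summit of the 12 chains with the most summits, against the distance from the chain's first summit in kb (horizontal axis); circles are replicate 1 and triangles replicate 2. The 8 snRNA summits lie at 16.5 to 35.0, the histone summits below 10, and single summits stand out in BCL2L1 (88.3) and ERGIC1 (297).

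Chains touched the body of 227 of 19974 protein-coding genes, 1.14% of all. Of the 230 chains, 130 touched 1 such gene, 26 touched 2 and 11 touched 3 or more, while 35 touched non-coding genes alone and 28 no gene at all. In 79 chains the whole chain lay within 1 protein-coding gene. Touched genes were about as long as the rest, with a median of 23.7 kb against 24.2 kb. Of the touched genes, 104 had 3 or more member summits in the body or within 1 kb, 47 had 2, 71 had 1 and 5 were crossed between summits without having one. For the 63 chains that touched no protein-coding gene, the nearest was 21.5 kb away in the median, and up to 431 kb.

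BCL2L1 on chromosome 20, the gene of the anti-apoptotic protein BCL-XL, held 7 summits in 25.4 kb, all inside the gene. The strongest, at 31696324, had folds of 94.7 and 81.9, and the next one, at 31701036, had 20.4 and 21.3. The other 5 had mean folds of 4.56 to 15.3, and 5 of the 7 passed an IDR of 0.05. One summit thus stood above a row of moderate ones in both replicates.

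SLC6A6 on chromosome 3, which encodes the taurine transporter, held 6 summits in 30.7 kb. Its strongest had 32.1 and 34.0, followed by 17.5 and 19.01 at the summit 1907 bp from the gene's end, and the weakest had 5.63 and 3.99. ERGIC1 on chromosome 5, the gene of a membrane protein that cycles between the endoplasmic reticulum and Golgi, had 5 summits in 27.5 kb. The summit at 172910927 reached 310.4 and 284, the next 38.1 and 30.7, and the other 3 had means of 6.25 to 14.3. It was among the 3 chain summits with the highest fold, and the chain was carried by it. ATP1B1 on chromosome 1 encodes the beta subunit of the sodium pump, and its 5 summits in 9.81 kb were more even at the top. Folds were 44.5 and 46.7 at a summit 2820 bp outside the gene, 35.4 and 30.6 at one 2309 bp inside it, and 45.0 and 42.1 at one 5765 bp inside it. The summit 121 bp before the gene's start was weak at 5.59 and 6.02, so the stronger summits lay on both sides of the start.

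Some genes with several chain summits were named here after their values had been seen. COL27A1 on chromosome 9, a fibrillar collagen gene, held 8 members in 2 chains that lie 56.7 kb apart. The first had 5 summits with a top of 54.3 and 69.9, and the second had 3 with a top of 15.6 and 21.0, the third being the LOC124902252 summit whose window is printed above. SDC4 on chromosome 20, the gene of the adhesion proteoglycan syndecan-4, had 5 summits with mean folds of 5.99 to 15.7. CAPN2 and COL27A1 were the 2 genes touched by more than 1 chain.

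Strong chains also lay away from protein-coding genes. The highest summed fold of any chain, 456, belonged to 4 summits on chromosome 14 between 76948076 and 76961865, at the non-coding gene LINC01629. The nearest protein-coding gene, IRF2BPL, a regulator of transcription, was 62.7 kb away. The summit at 76956581 had 310.4 and 312 and its neighbour 1709 bp on had 121 and 128, both nearly equal in the replicates, while the outer ones had means of 14.7 and 5.70. On chromosome 5, 3 summits lay in SPRY4-AS1, 31.9 kb or more from SPRY4, an inhibitor of receptor tyrosine kinase signalling. The middle one had 303 and 325, the highest mean fold of any member (314), and its neighbours had means of 6.15 and 5.94. It was 51.0 times as strong as the second, the most uneven of all chains.

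Further named chains differed in how evenly their summits were bound. On chromosome 17, 32.5 kb with 7 summits began 17.7 kb from SMURF2, which encodes a ubiquitin ligase for SMAD proteins, and crossed no annotated gene. Its mean folds ran from 5.20 to 14.3, and 4 of the 7 passed an IDR of 0.05. On chromosome 11, 6 summits within 11.0 kb lay 47.1 kb or more from PRSS23, a serine protease gene, with folds of 17.8 and 16.5 at the strongest and 4.74 and 6.01 at the weakest. On chromosome 14, 6 summits beginning 608 bp from CDCA4 had means of 4.42 to 7.71, and none passed the limit. The chain at CABP7 on chromosome 22, a gene of a calcium-binding protein, had 3 summits, 2 of them in the gene or within 1 kb of it. The last of the 3 was the strong one with 117 and 118, and the others had means of 5.88 and 9.15. RPL3 on chromosome 22 encodes a protein of the large ribosomal subunit, and 5 summits in 36.3 kb ended 16 bp from the start of that gene. The strong one among them (63.6 and 59.6) lay 12.9 kb from RPL3, and the one at the gene start had 5.40 and 4.19.

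Gene-dense stretches gave chains with summits at several gene ends. On chromosome 19, 6 summits in 29.3 kb ran over CBARP, ATP5F1D and MIDN. The summit 335 bp from the end of MIDN, the gene of midnolin, which delivers proteins to the proteasome, had 68.5 and 77.3. The summit 231 bp from the end of ATP5F1D, the gene of a subunit of mitochondrial ATP synthase, had 17.1 and 18.5. Named after its values had been seen, another chain of 3 at STK11, the gene of the kinase LKB1, lay 17.9 kb before it, with a top of 27.2 and 23.02. On chromosome 17, 7 summits in 28.7 kb went from VAMP2, which encodes a SNARE protein of vesicle fusion, past TMEM107 and a group of tRNA genes to BORCS6. Folds were 22.7 and 22.3 at the summit 186 bp from the VAMP2 end and 18.6 and 19.1 at the one beside SNORD118, the U8 small nucleolar RNA gene. The summit near 3 tRNA genes was weak, at 5.84 and 4.02. Named for its number of genes, a chain of 5 on chromosome 11 crossed 7 genes from TRPT1 and NUDT22 to PPP1R14B, with mean folds of 5.61 to 15.5, the first being the summit in the NUDT22 window.

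Chains crossed 12 of the 1911 annotated microRNA genes. Within 1 kb of a microRNA gene lay 4 members (0.490%, 95% interval 0.134 to 1.25%) and 35 of the other summits (0.380%), shares that lie close together. The longest chain held 7 summits over 37.2 kb on chromosome 22, from the let-7b hairpin in MIRLET7BHG to PPARA, a nuclear receptor of fatty acid breakdown. The summit 660 bp from mature let-7b-5p had 6.27 and 9.29, the strongest of the chain had 11.1 and 11.7, and the one 330 bp from the end of PPARA had 7.26 and 7.78. Summits of this chain thus lay close together in strength, with 3 of 7 past an IDR of 0.05. In a chain at VMP1 on chromosome 17, named after its values had been seen, 4 summits surrounded MIR21. Of these, 2 lay in VMP1 or within 1 kb of it. The summit 2086 bp from mature miR-21-5p, which lay outside VMP1, had 6.12 and 12.6. Replicate 2 was higher there, and none of the 4 passed an IDR of 0.05.

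Most listed genes of oxidative phosphorylation had a matched summit, and few were touched by a chain. Among all protein-coding genes, 23.0% had any matched summit in the body or within 1 kb, and 1.14% were touched by a chain. Of 24 known ERRα targets, 14 had a matched summit and 0 were touched. Of 37 listed genes of oxidative phosphorylation, 35 had a matched summit and 2 were touched. These were CYC1, which encodes cytochrome c1 of complex III, with a summit of 54.96 and 59.5, and NDUFS8, a gene of a complex I subunit, with 13.99 and 14.3. The list leaves out the ATP synthase gene ATP5F1D, which a chain also touched, with a highest mean fold of 17.8. Of 37 genes of the citric acid cycle and fatty acid oxidation, 22 had a matched summit and 0 were touched. ESRRA itself was in no chain. Of 22 listed glycolysis genes, 16 had a matched summit and 2 were touched. These were SLC2A1, the glucose transporter GLUT1, with 3 summits (top 13.99 and 14.9), and GAPDH, where the summit 476 bp from the gene end had 37.0 and 40.4. The enolase gene ENO3, which the list leaves out, was touched too (highest mean fold 9.49) and is named after its values had been seen.

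Listed genes of the Hippo pathway and of cell adhesion had chains of moderate fold. Of 24 Hippo genes, 15 had a matched summit and 3 were touched (12.5%), beside 23.0% and 1.14% of all protein-coding genes. AXL, a receptor tyrosine kinase that the basal and mesenchymal list also holds, had 5 summits with a top of 24.6 and 26.1 and a lowest of 5.61 and 5.54. AMOTL2 had 3, of which the upper ones were nearly equal (21.2 and 21.0, and 19.8 and 20.5). NF2, the gene of the tumour suppressor merlin, had 3 with a top of 15.04 and 14.3. Of 40 focal adhesion and actin genes, 20 had a matched summit and 4 were touched (10.0%). Among the 4 were CAPN2 (calpain-2, 5 summits in 2 chains, highest mean 15.8), ITGA3 (integrin alpha 3, 7.58) and PFN1 (profilin 1, 9.49). The highest folds of these genes lay above the median of all members, 8.49, except that of ITGA3. Most are the top of several summits of a gene, which by itself favours a value above the median of single summits.

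Further listed genes gave 1 chain or a few each. Of 32 matrix genes TGM2, transglutaminase 2, was touched, with 54.3 and 49.4 at its strongest of 3 summits, and another chain that touched no gene began 12.9 kb on. Of 11 AP-1 genes FOSL1, the gene of FRA-1, was touched, with 25.6 and 18.0 at a summit 51 bp from its end. Of 26 listed genes of receptor tyrosine kinases and MAPK feedback, SPRED2 and DUSP6 were touched. Both encode inhibitors of MAPK signalling, with highest mean folds of 10.7 and 7.98 in or at the gene. The strongest summit of the SPRED2 chain, with a mean of 38.6, lay outside the gene. The list leaves out the receptor tyrosine kinases AXL and DDR2, which chains also touched. DDR2, named after its values had been seen, had a highest mean fold of 22.8. Of 22 TGF-β genes LTBP2 (16.7) was touched, of 17 hypoxia genes EPAS1 (16.1), which encodes HIF-2α, and of 38 nuclear receptor and coregulator genes PPARD (22.4 ± 2.35). PPARD had 4 summits and is a receptor for fatty acids. No gene on the lists of 18 luminal, 24 NF-κB and cytokine, 18 cell cycle and 20 liver or neuron genes was touched. Chains did touch the cytokine gene CSF3 and the NF-κB regulator BCL3, which the lists leave out. Their highest mean folds were 22.8 and 11.3, and both are named after their values had been seen. Any matched summit was held by 12 matrix, 4 AP-1, 10 kinase and feedback, 10 TGF-β, 7 hypoxia and 22 nuclear receptor genes. The same held for 4 luminal, 3 NF-κB and cytokine, 6 cell cycle and 3 liver or neuron genes, beside 23.0% of all protein-coding genes. In all, 18 of the 409 listed genes found were touched, while chains touched 1.14% of all protein-coding genes. With so few in each list, no list is set apart here from all genes.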

How the data were processed

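The submitters' processing notes name MACS2 2.2.6, Bowtie2 2.3.5 and Trim Galore 0.6.5, as well as SAMtools, deepTools and Picard, and the genome build hg38; their settings are not given in these sources. Per the labels, chromatin was fixed with 1% formaldehyde, that of 2500000 cells was precipitated with 5 µg of ERRα antibody, and reads were 81 bp long and paired. The authors deposited one list of peaks per ChIP replicate and one that matches both. The authors deposited for each peak a ratio, its fold enrichment over input, and a −log10 q-value. The score deposited in the matched list is 540 at an IDR of 0.05, and that list was not filtered on it. Replicates were taken from the peak names and sample descriptions. Input enters by way of the authors' peak calls, made against the inputs, with their folds and q-values. Read counts per peak were not used, so the depth behind each fold is unknown here and no interval covers it.

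Of 10331 matched rows, 305 on chromosome Y or other sequences were left out. Genes came from a RefSeq table of GRCh38.p14, the same build, without strand. A gene's end thus means either edge of its body, unless its start is named. Start sites and sequences came from RefSeq windows that leave out chromosome 8. A chain touches a gene where their intervals overlap. No test was run: the summits and folds come from the contrast that chose the members. The members and the 17 gene lists were chosen with earlier results of these data known. Each list holds only part of its class, so touched genes of the same kind can lie outside it. Chains named are the 12 with the most summits, the 8 with the highest summed fold, the 5 longest and the 5 with the strongest summit, with the genes they touch or the nearest one. At most 4 touched genes a list are named, and others are said to be chosen after their values were seen. The values of an item this rule names are left out here. Python 3.11.15, pandas 2.3.3, numpy 2.4.6, scipy 1.17.1 and matplotlib 3.10.9 were used, and the chaining was tested on simulated data.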

Additional observations from a re-analysis of the deposited data

How the results depend on the processing

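The number and length of the chains moved with the settings of the rule. Of 178 alternative values, 97 stayed within the limits set for them (1 SD between replicates, a 95% interval, or 1.5 times for counts) and 81 moved. The 97 include the values of an alternative that merged summits within 500 bp. It could change nothing, because no matched summits were closer than 716 bp, so the 97 overstate how stable the results are. With a linking distance of 5 kb there were 82 chains with 270 members (2.69% of summits), a median length of 5.72 kb, a median fold of 8.85, 55.9% past an IDR of 0.05, 73 touched genes and 6 listed ones. These 82 chains overlapped 81 of the reported ones. With 25 kb there were 455 chains, 1735 members (17.3%), 25.7 kb, up to 14 summits, 614 genes and 37 listed ones. Requiring 4 summits left 77 chains, 358 members (3.57%), 17.5 kb, 18.2% at gene ends and 95 genes. Peaks past an IDR of 0.05 gave 52 chains, 178 members (3.52%), 13.4 kb, a median fold of 13.6, 32.6% outside genes, 51 genes and 6 listed ones. At an IDR of 0.01 these were 27 chains, 93 members (2.40%), 12.3 kb, 17.3, 40.9% and 25 genes. Windows of 500 bp and 5 kb put 9.79% and 37.8% of members at gene ends.

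Without replicate 2 or replicate 1, in the other's own list, chains ranged from 381 to 460, members from 1372 to 1657, the share from 10.9 to 11.8%, the length from 12.3 to 12.7 kb, the fold from 7.19 to 7.20, the share outside genes from 24.9 to 26.0% and touched genes from 383 to 443. With a −log10 q of at least 5, replicate 1 gave 8.94% in chains and a fold of 8.24, and replicate 2 a length of 12.4 kb. Leaving out the summits at small structural RNA and histone genes, an alternative chosen after seeing the data, left 224 chains with 779 members (7.86%), up to 7 summits and a median fold of 8.48. No paired analysis was possible because the results come from no test and the inputs have no values of their own in the lists used. With 2 replicates an SD is itself imprecise, and intervals cover positions in these lists, not cell cultures.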

Other observations

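Inside the spans of the 230 chains and 1 kb to each side, replicate 1 had 865 summits in its own list and replicate 2 had 858. The chains held 817 matched ones. The summed fold was higher in replicate 1 in 137 of the 230 chains. In 55 chains at least 3 summits passed an IDR of 0.05.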
